A study of Drosophila melanogaster with 6 samples.

Results

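The 73 genes described here encode mitochondrial ribosomal proteins of *Drosophila melanogaster*. They were chosen by name alone, as the rows of the deposited table with a gene symbol that starts with mRpL or mRpS and a number. Rows of chromosome 4 were left out. The table lists 14540 rows in all, and all 73 genes that the RefSeq gene table names in this way were found in it. Of these, 47 belong by their symbol to the large subunit (mRpL) and 26 to the small subunit (mRpS).

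The study set SIN3 187HA cells against S2 cells (3 biological replicates of each) to find the genes that respond when 1 isoform of the corepressor SIN3 replaces another. S2 is a cultured cell line derived from late fly embryos, with hemocyte-like traits, and the S2 group is its wild type form. SIN3 187HA cells are S2 cells with a stably integrated transgene for the replacing isoform, which carries an HA tag and is driven by a metallothionein promoter that copper switches on. Both groups received CuSO4, which the labels give as 0.07 µM for 48 h at replicate 1 of each group. The methods give 0.07 M for the transgenic line, and which unit is right is not settled in the sources used here. The methods give Geneticin and penicillin/streptomycin for routine culture of the transgenic lines and gentamycin for S2 cells, and for RNA-seq they say that the control S2 cells received the same treatment as the transgenic line. Whether the antibiotics differed in these samples is not given in the sources used here. Whether the transgenic line is 1 clone is not given in the sources used here.

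The authors combined the 3 replicates of each group, so each gene has 1 FPKM value per group. FPKM is a fragment count scaled to transcript length and by a factor per library. The spread between replicates could not be examined, no test was run, and all differences below are descriptions of the group values. The lowest steps of the FPKM values correspond to roughly 15300000 fragments per library in S2 and 15900000 in SIN3 187HA. At that depth, over the 3 libraries of a group together, the lowest fragment count of any member was about 300 in S2 and about 220 in SIN3 187HA. These lowest counts were taken in each group separately and need not belong to the same gene. Counting error alone then gives a log2 value an SE of at most 0.08 and 0.10, and this covers counting error only. *Sin3A*, the gene that was overexpressed, had 56.9 FPKM in the S2 group and 2319 in the SIN3 187HA group. Of the hemocyte markers, *srp* (in a row shared with *CR44133*) had 86.9 and 77.0 FPKM and *crq* had 86.0 and 107 FPKM, whereas *Hml* was below 1 FPKM in both groups. *eater* (50.2 and 2.30 FPKM) and *Ppn* (3.58 and 46.4 FPKM) differed strongly between the groups, and *NimC1* was not matched to a row. The part of this difference between the cells in the results below was not tested. In such bulk RNA, fewer cells of a type and less RNA per cell cannot be told apart.

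Mitochondria keep a small genome that encodes core subunits of the respiratory chain and the ATP synthase. These few messages are translated inside the organelle by a ribosome of its own. Its RNAs come from mitochondrial DNA, but all of its proteins in the fly are encoded in the nucleus, made in the cytosol and imported. The small subunit reads the message and the large subunit joins amino acids, and many proteins of both have no bacterial relative. Cells that rely on respiration need both subunits in balance, and loss of single members is often lethal or slows growth in flies.

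Mitochondrial ribosomal protein genes were mostly lower in SIN3 187HA cells, by a modest amount. Of the 73 genes, 57 had a lower FPKM in SIN3 187HA cells than in S2 cells and 16 a higher one, so 78.1% were lower. Among the 8019 rows kept as background (mean FPKM of both groups of at least 1 and above 0 in each), 52.2% were lower, and among the 3933 rows whose mean FPKM lay within the members' range, from 16.9 to 115, the share was 55.6%. The median log2 ratio of SIN3 187HA over S2 was -0.30 over the members, with quartiles at -0.56 and -0.08. It was -0.04 over all rows kept and -0.07 over the rows in the members' range. A median member thus stood at 81.0% of its S2 level. The 73 genes summed to 3284 FPKM in S2 (0.402% of the table) and 2619 in SIN3 187HA (0.331%).

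Few of these genes were far from their S2 level. In SIN3 187HA cells 3 of 73 were at least 2-fold lower, where 11.5% of all rows kept and 8.09% of the rows in the members' range were. None was at least 2-fold higher, where the background shares were 12.6% and 6.92%. With a limit of 1.5-fold, 18 members (24.7%) were lower, beside background shares of 20.7% and 17.6%. At the same limit 2 members (2.74%), *mRpL3* and *mRpS6*, were higher, beside 21.0% and 15.1%. Most of the list, 53 of 73 genes, stayed within 1.5-fold of the S2 value. So did most of the background, with 4672 of 8019 rows kept and 2650 of 3933 rows in the members' range. The quartile range of the members' log2 ratios was 0.48 wide, against 0.73 for rows of similar FPKM. The share of members lower by 1.5-fold was thus near the background, while fewer members than background rows were higher. A narrow spread was not particular to this list, and few higher genes were also seen among proteasome subunits. Over 22 genes matched by name as proteasome subunits, a partial list, the quartile range was 0.36 wide and none was at least 1.5-fold higher. Over 85 cytoplasmic ribosomal protein genes the quartile range was 0.49 wide, but 18 (21.2%) were at least 1.5-fold higher. None of these differences was tested.

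**Figure D1:**
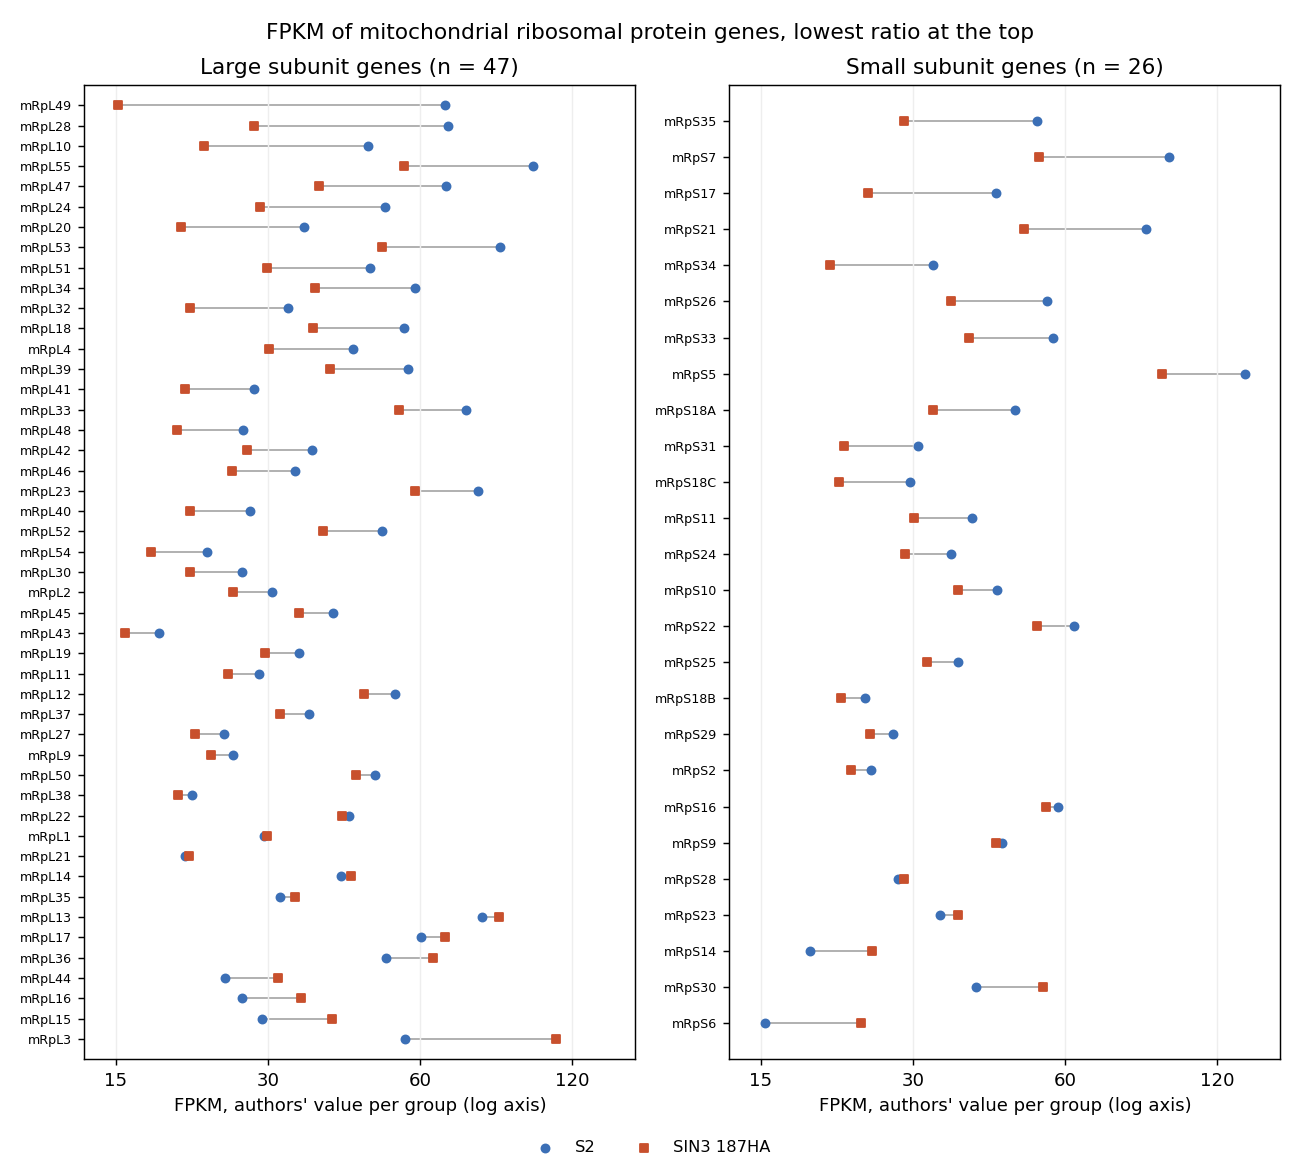
FPKM (log axis) of each large subunit gene (left, n = 47) and small subunit gene (right, n = 26) in S2 cells (circles) and SIN3 187HA cells (squares), 1 value per group as combined by the authors, ordered by log2 ratio. The SIN3 187HA square lies left of the S2 circle for 36 large and 21 small subunit genes, and *mRpL49* at the top and *mRpL3* at the bottom left have the widest gaps in each direction.

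The large and the small subunit were compared with each other, since a ribosome holds 1 of each. Of the large subunit genes, 36 of 47 (76.6%) were lower in SIN3 187HA cells, with a median log2 ratio of -0.34. Of the small subunit genes, 21 of 26 (80.8%) were lower, with a median of -0.28. The medians differed by -0.06 (large minus small), and no test could be run on this difference. FPKM summed over the large subunit genes went from 2082 to 1682, or 80.8% of the S2 sum, and over the small subunit genes from 1202 to 937, or 77.9%. The median level was 40.4 FPKM for large and 39.6 FPKM for small subunit genes in S2. In SIN3 187HA it was 30.1 and 31.1 FPKM. The small difference in medians changed sign with the treatment of the data: it was 0.06 when each gene was set against its chromosomal neighbours, and 0.33 when only the 18 large and 11 small subunit genes that are alone in their row and overlap no other gene's exons were used. Human counterparts of *mRpS30* and *mRpS18A* sit in the large subunit despite their names, and moving both left the difference at -0.06.

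**Figure D2:**
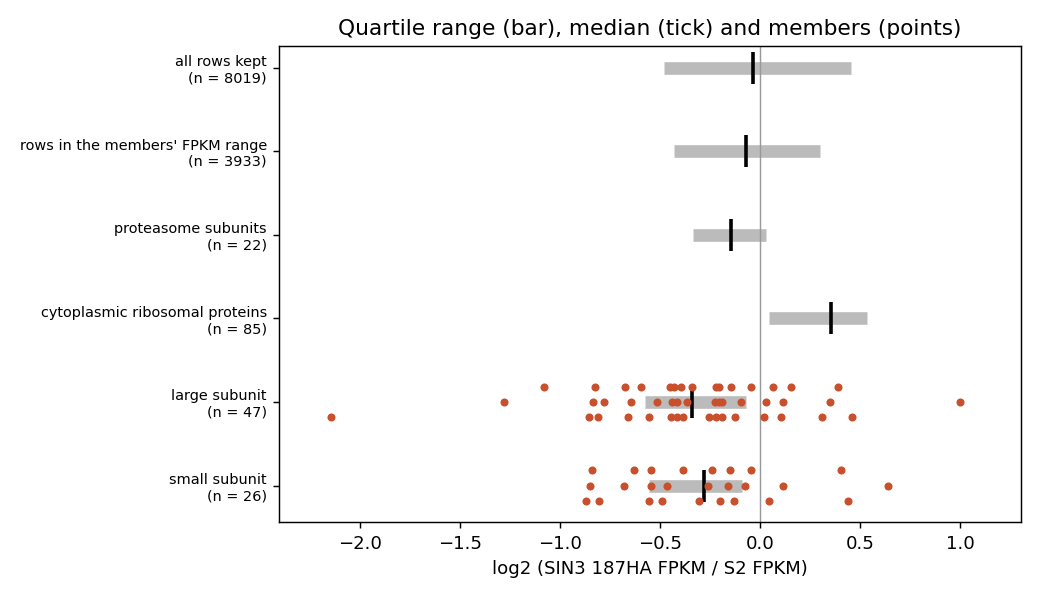
Log2 ratio of SIN3 187HA FPKM over S2 FPKM for 6 lists: grey bars span the quartiles, black ticks are medians and points are the single mitochondrial ribosomal protein genes. Both subunits lie left of all rows kept, with medians of -0.34 and -0.28 against -0.04, while cytoplasmic ribosomal proteins lie to the right with a median of 0.35.

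The numbers in these symbols carry some history. Large subunit proteins up to number 36 and small subunit proteins up to number 21 take the number of a bacterial ribosomal protein, and most higher numbers belong to proteins that were added in mitochondria. The split by number is not exact, since the human counterparts of *mRpL47*, *mRpS24* and *mRpS28* are grouped with bacterial families. Of the 28 large subunit genes with a bacterial number, 18 were lower, with a median log2 ratio of -0.21. Of the 19 with a higher number, 18 were lower, with a median of -0.42, and *mRpL44* was the exception. In the small subunit the order was the other way round but nearly level. The median was -0.32 over 14 genes with a bacterial number, of which 12 were lower. It was -0.27 over 12 genes with a higher number, of which 9 were lower. By the share of lower genes, the large subunit genes with a higher number were thus the most uniform of these 4 classes, in a comparison that was not tested. The order changed relative to the median of the 24 nearest rows. All 12 small subunit genes with a higher number lay below theirs, against 15 of the 19 in the large subunit. With a bacterial number it was 22 of 28 in the large and 10 of 14 in the small subunit.

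Among large subunit genes the 3 that were at least 2-fold lower differed in their surroundings. Positions are those of the locus that the table gives for a row, and 40 of the 73 members share theirs with another row. *mRpL49*, one of the mitochondrial additions, lies on the X chromosome of dm3, from 12801139 to 12801877. The gene had 67.1 FPKM in S2 and 15.2 in SIN3 187HA, a log2 ratio of -2.14, and stood at rank 11 in S2 and rank 73 in SIN3 187HA of the 73 genes. The 24 nearest rows on either side of it (12 each way, over 0.528 Mb) were lower as a group too, with a median log2 ratio of -1.74 and 23 of 24 below 0. Its next neighbours showed this directly: *CG4400*, which begins 139 bp after it, had 44.7 and 7.77 FPKM, and *CG4407*, before it, had 33.9 and 5.78 FPKM. Measured against the median of its neighbours, *mRpL49* stood at -0.41, whereas against the 10 nearest rows it stood at -0.06.

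*mRpL28*, the counterpart of a bacterial large subunit protein, lies on 2L from 4973976 to 4977023. It had 68.3 FPKM in S2 and 28.1 in SIN3 187HA, a log2 ratio of -1.28. All 24 of its neighbours were below 0, with a median of -0.74. The rows closest to it, *CG14043* (-0.13) and *CG3792* (-0.31), were less low than the gene itself. Its exons overlap those of *Gmd* on the other strand in the BDGP6 annotation, and *Gmd* had 27.6 and 23.0 FPKM. *mRpL10* encodes the protein that anchors the stalk on which translation factors land, and its locus spans 203779 to 210725 on 2L. It had 47.3 and 22.4 FPKM, a log2 ratio of -1.08, although the median of its 24 neighbours was 0.12. The next row, *spen*, and *Tbc1d15-17*, which is listed at the same locus as *mRpL10*, both had log2 ratios of -0.85. *CG11617*, also listed there and overlapping on the other strand, had 1.54 and 1.14 FPKM. How far fragments were divided correctly among these genes was not tested.

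The remaining parts of the factor stalk were close to their S2 level. *mRpL12*, which forms the flexible stalk tip, had 53.6 FPKM in S2 and 46.5 in SIN3 187HA, a log2 ratio of -0.20. *mRpL11*, at the stalk base, had 28.8 and 25.0 FPKM, a log2 ratio of -0.21. Within the stalk *mRpL10* alone was at least 2-fold lower. *mRpL1*, which forms the mobile stalk on the opposite side where spent tRNA leaves, had 29.5 and 29.9 FPKM, a log2 ratio of 0.02.

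*mRpL40*, *mRpL46* and *mRpL48* were taken from the central protuberance, the crest of the large subunit that faces the small one. They do not stand for the whole crest, since other proteins placed there differ, such as *mRpL18* (log2 ratio -0.60) and *mRpL38* (-0.10). *mRpL48* had 26.8 FPKM in S2 and 19.8 in SIN3 187HA, a log2 ratio of -0.44. *mRpL46* had 34.0 and 25.4 FPKM, a log2 ratio of -0.42. *mRpL40* had 27.7 and 21.1 FPKM, a log2 ratio of -0.39. These 3 genes lie on different chromosome arms (2L, 3L and 3R). The neighbours of *mRpL46* had a median of -0.06, whereas those of *mRpL48* (-0.28) and *mRpL40* (-0.36) were lower with the gene.

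The genes named here for proteins at the exit tunnel, where the new chain leaves toward the inner membrane, covered a wider range. They do not stand for all proteins there, and others may differ. *mRpL22* and *mRpL23* were added after their values were seen. *mRpL47*, whose human counterpart lies near the tunnel exit, had 67.7 FPKM in S2 and 37.9 in SIN3 187HA, a log2 ratio of -0.84. *mRpL24* had 51.2 and 28.9 FPKM, a log2 ratio of -0.83, with neighbours at a median of -0.52. *mRpL23* had 78.2 and 58.6 FPKM, a log2 ratio of -0.42. *mRpL22*, in contrast, was nearly level, with 43.4 and 42.1 FPKM, a log2 ratio of -0.05. *mRpL45*, which holds the ribosome to the membrane in mammals, had 40.4 and 34.6 FPKM. Its log2 ratio of -0.23 stood against neighbours at 0.44.

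Other large subunit genes with a lower value include *mRpL55*, *mRpL53* and *mRpL20*. The row of *mRpL55* is shared with the kinase gene *cdi*, and had 100 FPKM in S2 and 55.7 in SIN3 187HA. The row of *mRpL53* is shared with *CG33155*, and had 86.5 and 50.5 FPKM. Neither row says which of its genes gave the fragments. *mRpL20*, alone in its row, had 35.4 and 20.2 FPKM, a log2 ratio of -0.81, with neighbours at -0.11.

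The last shared row was that of *mRpL13* with *CG10602*, with 79.4 FPKM in S2 and 86.0 in SIN3 187HA. By the mean of both groups, the lowest levels in the large subunit were those of *mRpL43* (18.2 and 15.6 FPKM), *mRpL54* (22.7 and 17.6 FPKM) and *mRpL38* (21.3 and 19.9 FPKM), with log2 ratios of -0.22, -0.37 and -0.10.

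At the other end of the large subunit stood *mRpL3*, which lines the way to the peptidyl transferase centre. It lies on X from 15655293 to 15656696 and had 55.9 FPKM in S2 and 112 in SIN3 187HA. Its log2 ratio of 1.00 is a 1.99-fold difference, just inside the 2-fold limit, and it stood at rank 18 of the members in S2 and rank 1 in SIN3 187HA. Its 24 neighbours had a median of 0.68, and 2 of them were below 0. *mRpL15* had 29.2 and 40.2 FPKM, a log2 ratio of 0.46, and its neighbours had a median of 0.64. *mRpL16*, which helps to seat tRNA, had 26.7 and 35.0 FPKM, a log2 ratio of 0.39 beside neighbours at 0.21.

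*mRpL44* and *mRpL36* complete the 5 highest ratios of the large subunit. *mRpL44* encodes a protein with an RNase III-like fold, and had 24.6 FPKM in S2 and 31.4 in SIN3 187HA, a log2 ratio of 0.35. *mRpL36*, the counterpart of the smallest bacterial large subunit protein, had 51.3 and 63.7 FPKM, a log2 ratio of 0.31. Its neighbours stood at 0.49. Of these 5 genes, *mRpL3*, *mRpL16* and *mRpL44* lay above their neighbours and *mRpL15* and *mRpL36* lay below them.

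In the small subunit no gene reached a 2-fold difference. The lowest ratio was that of *mRpS35*, a mitochondrial addition to the subunit, which lies on 3L from 2780899 to 2782105. It had 52.7 FPKM in S2 and 28.8 in SIN3 187HA, a log2 ratio of -0.87, and its neighbours had a median of -0.10. *mRpS7*, which binds the ribosomal RNA of the head near the decoding site, had 96.1 and 53.3 FPKM, a log2 ratio of -0.85. *mRpS17* had 43.8 and 24.5 FPKM, a log2 ratio of -0.84. The neighbours of *mRpS7* and *mRpS17* had medians of -0.14 and 0.07, so these 3 genes were lower than the median of their 24 neighbours. For *mRpS7* the 10 nearest rows alone had a median of -0.53.

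*mRpS21* and *mRpS34* followed in the same direction. *mRpS21* had 86.8 FPKM in S2 and 49.7 in SIN3 187HA, a log2 ratio of -0.80. *mRpS34* had 32.9 and 20.6 FPKM, a log2 ratio of -0.68. *mRpS5*, which lines the path of the entering message, was the most abundant small subunit gene in both groups, with 136 and 93.1 FPKM and a log2 ratio of -0.55. Among all 73 genes it held rank 1 in S2 cells and rank 2 in SIN3 187HA cells.

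*mRpS6* and *mRpS30*, with the highest ratios in the small subunit, both lay beside higher neighbours. *mRpS6*, the member with the lowest S2 level, had 15.3 FPKM in S2 and 23.7 in SIN3 187HA, a log2 ratio of 0.64. Its neighbours on 3L had a median of 0.82, with 2 of 24 below 0. *mRpS30* lies on X from 15680086 to 15682072, 23.4 kb from *mRpL3*, and had 39.9 and 54.1 FPKM, a log2 ratio of 0.44. The 7 kept rows between *mRpL3* and *mRpS30* had a median log2 ratio of 1.02, so the pair shares a region that was higher in SIN3 187HA cells. *mRpS14* had 18.8 and 24.8 FPKM, a log2 ratio of 0.40 beside neighbours at 0.39, although its 10 nearest rows stood at 0.05. *mRpS23* (33.9 and 36.7 FPKM) and *mRpS28* (28.0 and 28.8 FPKM) were close to level.

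Flies have 3 genes for relatives of bacterial ribosomal protein S18. *mRpS18A* had 47.8 FPKM in S2 and 32.8 in SIN3 187HA, a log2 ratio of -0.54. *mRpS18B* had 24.1 and 21.6 FPKM, a log2 ratio of -0.16. *mRpS18C* had 29.6 and 21.4 FPKM, a log2 ratio of -0.46. The order of levels in S2 cells was A, C and B, and in SIN3 187HA cells B and C were nearly equal. *mRpS18C* stood furthest from its 24 neighbours on 3R, which had a median of 0.91, at -1.38 relative to them. That distance depended on the window: the 10 nearest rows had a median of -0.44, and relative to them it stood at -0.03. *mRpS29*, the counterpart of the GTP-binding protein DAP3, had 27.4 and 24.7 FPKM, a log2 ratio of -0.15.

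Since several regions of the genome were higher or lower as a whole, each member was set against the median log2 ratio of the 24 nearest kept rows. The genes fell into 3 classes. For 12 members the neighbours stood at -0.3 or less, and 11 of these members were lower in SIN3 187HA cells (91.7%, where 71.8% of all 1419 rows with such neighbours were). The exception was *mRpL14*, with 41.9 FPKM in S2 and 43.9 in SIN3 187HA beside neighbours at -0.61, although its 10 nearest rows stood at -0.06. For 50 members the neighbours lay between -0.3 and 0.3, and 44 were lower (88.0%, beside 53.9% of 5370 rows), with a median log2 ratio of -0.34 against -0.06. For 11 members the neighbours stood at 0.3 or more, and 2 were lower (18.2%, beside 21.5% of 1212 rows). These were *mRpS18C* and *mRpL45*. The other 9 of these 11 members had a higher value in SIN3 187HA cells, out of 16 such members among the 73.

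Across the 73 members the log2 ratio and the median of the 24 neighbours had a Spearman rho of 0.52 and a Pearson r of 0.70. Both come from the same libraries, and nearby members share neighbours, so this is a description. Relative to their neighbours 59 of 73 members were lower, with a median difference of -0.24. By arm these were 11 of 12 on 2L, 10 of 12 on 2R, 16 of 17 on 3L, 17 of 21 on 3R and 5 of 11 on X. On X the median difference was 0.01. Among the 8001 rows kept that have such neighbours, 4009 were lower than theirs, with a median difference of -0.001. Of the members at the upper end, *mRpS6*, *mRpL15* and *mRpS30* lay under their surroundings, and *mRpL3* stayed 0.31 above.

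**Figure D3:**
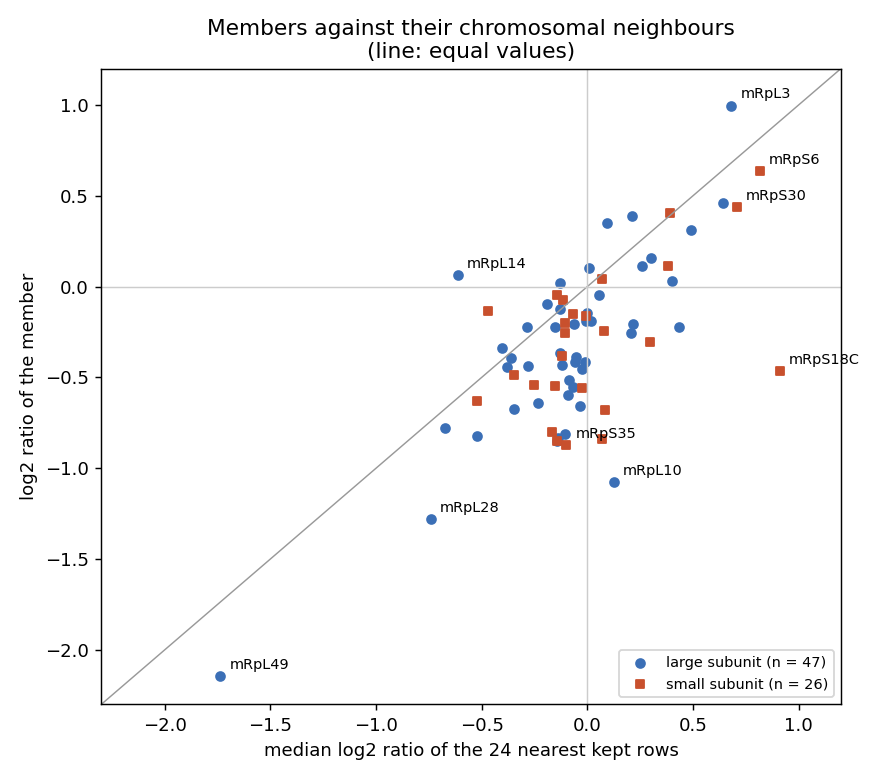
Log2 ratio of each member (vertical axis) against the median log2 ratio of the 24 nearest kept rows on the same chromosome arm (horizontal axis), with the line of equal values. Of 73 points, 59 lie under the line. *mRpL49* sits with lower neighbours at -1.74, *mRpL3* with higher ones at 0.68, and *mRpS18C* lies 1.38 below its neighbours.

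By chromosome arm the members were lower on each autosomal arm. The median log2 ratio was -0.50 over 12 members on 2L, -0.41 over 12 on 2R, -0.42 over 17 on 3L and -0.26 over 21 on 3R. On X it was -0.05 over 11 members, of which 6 were lower. All rows kept had medians of -0.11 on 2L, -0.07 on 2R, 0.08 on 3L, -0.08 on 3R and 0.07 on X. Members on 3L were thus lower on an arm whose rows were on balance slightly higher. The members on X ranged from -2.14 for *mRpL49* to 1.00 for *mRpL3*, the lowest and the highest of all 73 genes.

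**Figure D4:**
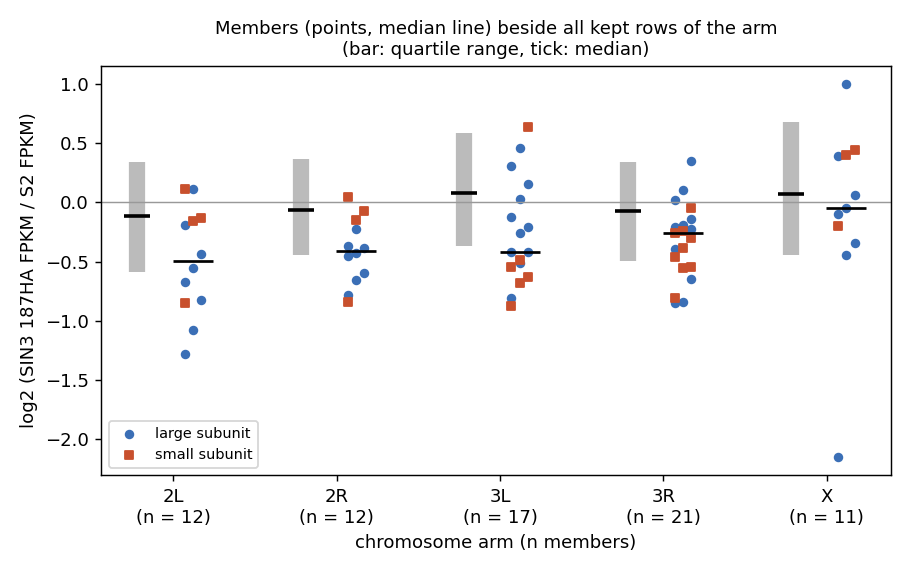
Log2 ratio of the members on each chromosome arm (circles large subunit, squares small subunit, line median) beside the quartile range (grey bar) and median (tick) of all kept rows on that arm. The member medians lie below the arm medians on 2L, 2R, 3L and 3R, and at -0.05 against 0.07 on X, where *mRpL49* and *mRpL3* mark both extremes.

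Members that lie near each other gave mixed values. On 2L, *mRpS2*, *mRpL24* and *mRpL28* follow one another within 150 kb gaps. *mRpS2* was close to level (24.8 FPKM in S2 and 22.6 in SIN3 187HA), while *mRpL24*, 92.3 kb further, and *mRpL28*, another 28.6 kb on, had log2 ratios of -0.83 and -1.28. The 5 kept rows between *mRpS2* and *mRpL24* had a median of -1.04, and the 24 neighbours of *mRpS2* had a median of -0.47. On 3R, *mRpS10* and *mRpL9* had log2 ratios of -0.26 and -0.14 with a gap of 100.2 kb, and *mRpS18A* and *mRpL19* had -0.54 and -0.22 with a gap of 111.5 kb.

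The levels themselves spanned a narrow range for the table. In S2 the highest member, *mRpS5*, stood 8.91-fold above the lowest, *mRpS6*, and in SIN3 187HA *mRpL3* stood 7.35-fold above *mRpL49*. The quartiles were 1.93-fold apart in S2 and 1.81-fold apart in SIN3 187HA. The order of the members was partly kept, with a Spearman rho of 0.73 between the groups over 73 genes, and 5 genes were among the 10 highest in both. The lower values were more marked among abundant members: the median log2 ratio was -0.51 over the 37 members in the upper part by mean FPKM and -0.21 over the 36 in the lower part. Rows of the table in the same 2 ranges of FPKM had medians of -0.09 and -0.06.

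Overlap with other genes limits part of these values. The kit is not said to keep strand, so fragments of a gene and of an antisense partner cannot be told apart. In the BDGP6 annotation, the exons of 42 of the 73 members overlap an exon on the other strand. Over the 29 members alone in their row and free of any overlap, 23 were lower and the median log2 ratio was -0.26. Of the 3 genes at least 2-fold lower, *mRpL49* is free of overlap, while *mRpL28* and *mRpL10* are not. Transcripts of the members are short, with a median of 774 nt and a range from 327 to 2078 nt. FPKM showed little relation to this length, with a Spearman rho of -0.03.

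The cytosolic ribosome and the proteasome, 2 other large complexes, gave values to set beside these. Both lists were matched by name alone: a symbol that starts with RpL, RpS, RpLP, Pros, Rpn or Rpt, followed by a number. Subunit genes with symbols of another form, such as Prosalpha or Prosbeta, were not counted. Cytoplasmic ribosomal protein genes (85 rows) had a median log2 ratio of 0.35, and 18 of 85 were lower in SIN3 187HA cells. Proteasome subunit genes (22 rows) had a median of -0.14, and 14 of 22 (63.6%) were lower, beside 52.2% of all rows kept. Mitochondrial and cytoplasmic ribosomal proteins therefore lay on opposite sides of the median of all rows, in a difference that was not tested. The cytoplasmic genes summed to 265711 FPKM in S2 and 301354 in SIN3 187HA, in the same libraries. FPKM are relative values scaled per library (cuffdiff with default parameters), and the part of this sum in the members' values was not tested.

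Other genes of mitochondrial gene expression were taken from a list of 22 names, of which 20 were matched to a kept row. Of these, 1 was at least 2-fold lower and 1 at least 2-fold higher, and 13 of 20 were lower at all, with a median log2 ratio of -0.24. Of all rows kept, 11.5% were at least 2-fold lower, 12.6% at least 2-fold higher and 52.2% lower at all, so these counts are not far from the background. The names *Crif* and *mEFG2* were not matched. *tko* and *bonsai*, which encode further small subunit proteins under their own names, stood with the list: *tko* had 28.2 FPKM in S2 and 19.5 in SIN3 187HA, and *bonsai* had 51.9 and 39.8 FPKM.

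The translation factors that work on this ribosome had no common direction, with 4 of 8 lower and a median of 0.03. *mEFTu1* (listed as *EfTuM*), which delivers tRNA, had 35.2 FPKM in S2 and 24.6 in SIN3 187HA. *mIF2* (listed as *CG12413*), which seats the initiator tRNA, had 5.25 and 18.8 FPKM, a log2 ratio of 1.84 and the highest of the list. Its neighbours had a median of 0.32, but *Ppn*, which lies from 24346387 to 24366046 on 3R just before the start of *mIF2* at 24367996, had 3.58 and 46.4 FPKM, a log2 ratio of 3.70. The elongation factor *mEFG1* (listed as *ico*) had 22.4 and 27.1 FPKM, and the recycling factor *mRRF1* (listed as *CG4447*) had 3.87 and 5.03 FPKM. The other initiation factor of the list, *mIF3* (listed as *CG13163*), had 7.85 and 6.78 FPKM, a log2 ratio of -0.21. *mIF2* was thus the exception among factors that otherwise stayed within 1.5-fold.

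Of the genes that keep and transcribe mitochondrial DNA, 7 of 10 were lower, beside 52.2% of all rows kept, with a median of -0.24. *TFAM*, which packages mitochondrial DNA and helps to start its transcription, had 81.5 FPKM in S2 and 26.0 in SIN3 187HA, a log2 ratio of -1.65. It lies on 3R in a region that was lower as a whole, with neighbours at a median of -1.60, and relative to them it stood at -0.05. *mtSSB*, the single-strand DNA-binding protein of replication, had 102 and 59.9 FPKM, a log2 ratio of -0.77 beside neighbours at -0.12. *bsf*, the fly relative of LRPPRC that protects mitochondrial messages, had 64.9 and 42.0 FPKM, a log2 ratio of -0.63 beside neighbours at -0.07. The replicative polymerase *PolG1* (listed as *tam*) went the other way, with 8.70 and 13.7 FPKM, a log2 ratio of 0.65 beside neighbours at 0.64.

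**Figure D5:**
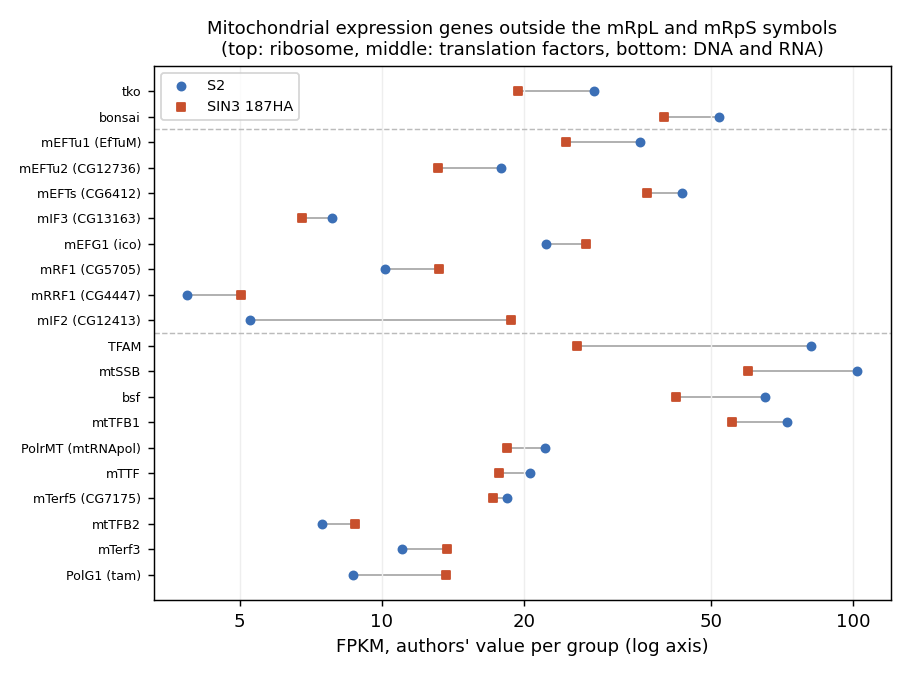
FPKM (log axis) in S2 cells (circles) and SIN3 187HA cells (squares) of 20 genes of mitochondrial gene expression, with the row name in brackets where it differs. *TFAM* (81.5 to 26.0) and *mIF2* (5.25 to 18.8) have the widest gaps, and the other genes lie within 2-fold.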

How the data were processed

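Expression measured by RNA-seq was compared between 2 groups of 3 biological replicates, S2 and SIN3 187HA, assigned from the sample titles. Per the methods, the authors used Bowtie2 and Tophat for alignment (dm3), Cufflinks for RefSeq gene levels and cuffdiff for the comparison. Tool versions are not given in the sources used here. The authors deposited FPKM, 1 value per gene and group, with replicates combined. The fold change, test statistic, p-value and q-value of the authors' own comparison were not used.

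Log2 ratios of the 2 FPKM values were computed without a pseudocount over rows above 0 in both groups with a mean FPKM of at least 1, leaving out 93 rows of chromosome 4 (Python 3.11.15, pandas 2.3.3, numpy 2.4.6). All 73 members passed. Neighbours are the 12 nearest kept rows on each side that do not overlap the row. Ensembl BDGP6 gave transcript lengths and exon overlaps only, because its build differs from dm3. Depth was estimated from the lowest steps of FPKM times transcript length (over 1500 nt, less a 200 nt fragment). The ratio, count and neighbour steps were tested on simulated data. Named genes are the members past 2-fold, the 5 highest and 5 lowest ratios and 3 highest and 3 lowest levels of each subunit, the *mRpS18* paralogs, stalk, protuberance and membrane members, *mRpS29*, members sharing a row or near each other, and the pathway list. *mRpL18*, *mRpL20*, *mRpL22*, *mRpL23* and the named neighbouring genes, and *mRpL14*, were added after their values were seen. Members and lists were chosen with earlier results of these data known. Alternatives covered the FPKM minimum, a pseudocount, centring, shared rows, the fold limit, the subunit of 2 genes and neighbours.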

Additional observations from a re-analysis of the deposited data

How the results depend on the processing

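Of 51 values under alternative settings, 2 reversed, 7 moved and 42 did neither, where a median counted as moved only outside a binomial interval over its own members, which is wide for the subunits. The difference between subunit medians (-0.06, large minus small) turned to 0.059 relative to 24 neighbours and to 0.33 with genes alone in their row and free of exon overlap, both settings chosen after seeing the data, and the cause was not tested. Under the latter, the large subunit median was -0.21 in place of -0.34, the small subunit median was -0.54 in place of -0.28, and 1 member in place of 3 was at least 2-fold lower, with fewer genes counted. With rows of 1 gene the subunit difference was -0.02. Centring on the median of all rows put 1 member, *mRpL3*, past 2-fold higher. The 1.5-fold limit counted 18 members lower and 2 higher, and 3 pathway genes lower and 2 higher. The median over all members was -0.20 relative to 10 neighbours and from -0.30 to -0.24 under the other settings. No paired analysis was possible because the table holds 1 value per group, and for the same reason no replicate could be left out. Depth is an estimate, and differences of about 0.1 on the log2 scale are within counting error for the members with the fewest fragments.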
